A study of Mus musculus with 36 samples.

Results

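The comparison described here is that of the wild-type mouse brain on postnatal day 21 (P21) with the wild-type brain on postnatal day 3 (P3), across all genes. It rests on 13 of the 36 libraries of the study, 8 wild-type libraries at P3 and 5 at P21, picked by age and genotype in the column names of the deposited table, and on 17821 of its 19164 genes, which reached a normalized count of at least 10 in 5 or more of these libraries. All animals were untreated male C57BL/6J mice, the material was whole brain, and the wild-type animals carried no allele that the labels name. The study set these animals beside others labelled heterozygous for Myt1l, which encodes a neuronal DNA-binding zinc-finger protein, 8 at P3 and 5 at P21, and followed both genotypes to postnatal day 56 (P56) with 5 animals each. Pups of both genotypes shared a mother's cage, and the labels put weaning anywhere between days 18 and 28, so whether the P21 animals had left the mother is not given. Nor do the labels give the time of day, the litter, or a sequencing batch. Descriptions of the P21 wild-type libraries carry a prefix whose meaning is not given: 24 for replicate 1, 16 for replicates 2 and 3, and 11 for replicates 4 and 5. Values that set replicates 4 and 5, or 2 and 3, apart at P21 therefore cannot be told apart from whatever that prefix stands for. Age therefore cannot be told apart from anything else that differed between the 2 sets of libraries, and since nothing says that the animals came from separate litters, p-values measure only the spread between these samples.

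Between these ages the mouse brain passes from late neurogenesis to a wired and largely insulated organ. At birth most neurons of the forebrain are already made, whereas granule cells of the cerebellum, astrocytes and oligodendrocytes are still being produced, and axons are still growing. Over the following weeks synapses form, receptor and channel subunits of the immature brain give way to adult ones, oligodendrocytes wrap axons in myelin, the eyes open, and energy use turns from mixed fuels in milk towards glucose. In a whole-brain library a gene can rise because more cells of a type are present or because each cell holds more of its RNA, and these cannot be told apart here.

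Each value below is a normalized count, an estimated read count of a gene scaled by the authors so that libraries can be compared; it is not corrected for gene length. Normalized counts added up to 31913819 to 33555147 per library at P3 and 36806953 to 37840500 at P21, and the sequencing depth behind them is unknown. The share taken by the mitochondrial genome was 3.3% to 3.65% at P3 and 4.8% to 6.0% at P21, and that of the 10 most abundant genes 5.11% to 5.51% and 6.52% to 8.38%. Markers of neurons, microglia and endothelium were present in every library. Snap25 of neurons stood at 11168 to 18490 at P3 and 72669 to 96702 at P21. Cx3cr1 of microglia stood at 563 to 716 at P3 and 982 to 1389 at P21, and Cldn5 of endothelium at 1467 to 2416 at P3 and 742 to 1563 at P21.

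Some libraries stood apart from others of their age. P3 replicate 1 was the highest of the 8 P3 libraries for 44.3% of the genes that were at least 2-fold higher at P21, and replicate 2 for 23.7%. Mog, a surface protein of myelin, stood at 130 and 106 in these 2 libraries against 13.9 in the lowest one. At P21, replicate 5 was the lowest library for 37% of those genes and the highest for 36.1% of them. Its mean log2 level of the astrocyte list was 12.52, against 13.08 to 13.20 in the other 4 libraries, and that of the endothelial list 8.40, against 9.24 to 9.38. For synaptic vesicle genes it was the highest, at 13.60 against 13.38 to 13.46. Leaving out all 3 libraries gave 7096 genes higher and 7344 lower at P21, with 2688 and 2820 at least 2-fold. Their part in single results was not tested beyond the values given beside those results.

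**Figure D1:**
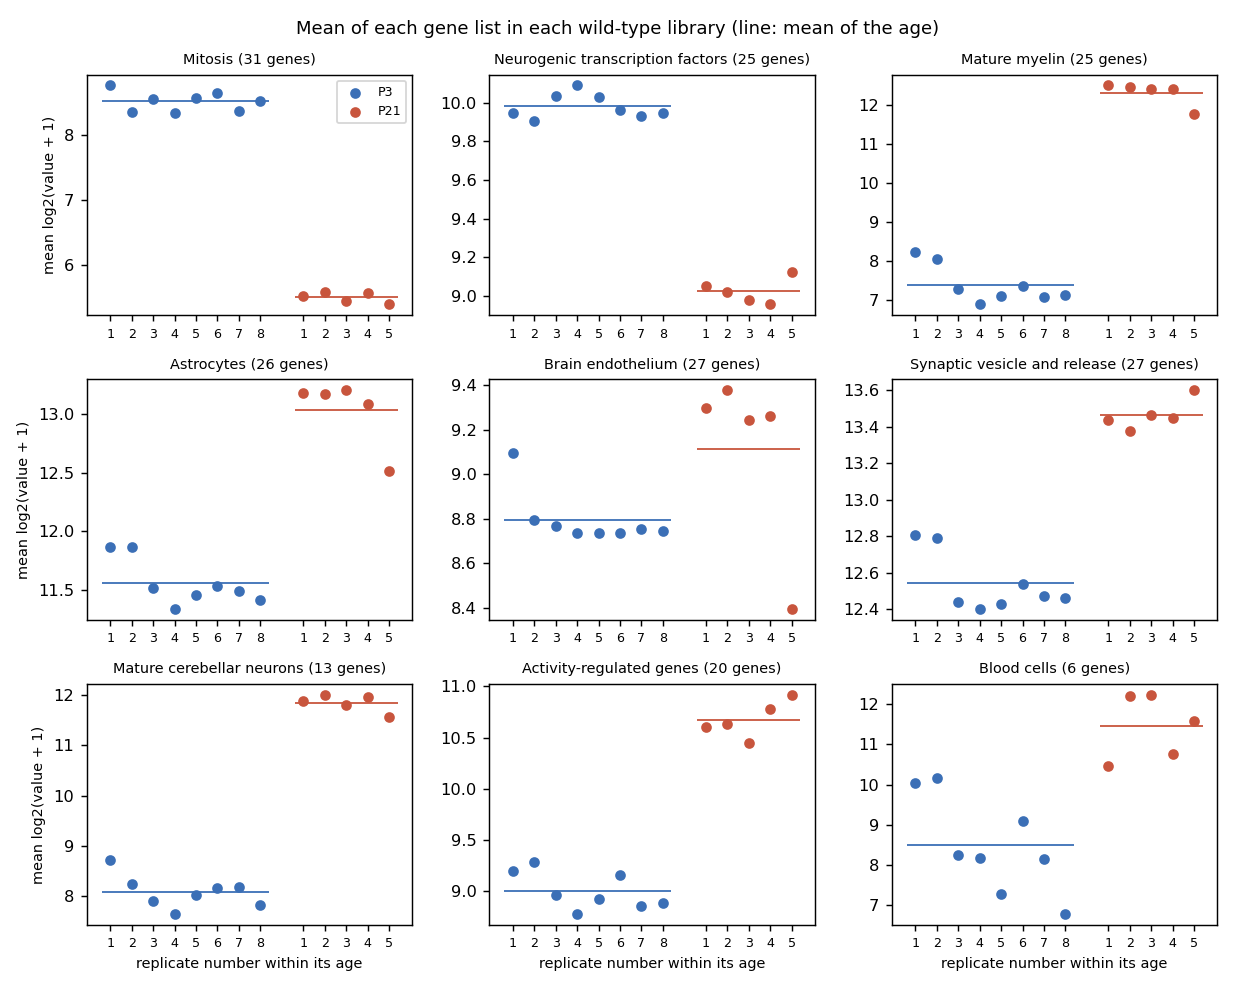
Mean log2(normalized count + 1) of 9 gene lists (vertical axes, each with its own range) in each wild-type library (horizontal axis, replicate number within its age), P3 in blue and P21 in red, with a line at the mean of the age. P3 replicates 1 and 2 sit above the other P3 libraries in the myelin, astrocyte, vesicle and blood panels, and P21 replicate 5 sits below the others for myelin, astrocytes and endothelium, where its mean of 8.40 is under all P3 libraries.

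Most genes differed between the ages. Calls were made in limma, a linear model that draws each gene's variance towards a trend over all genes. At a Benjamini-Hochberg adjusted p under 0.05, 6863 genes (38.5% of those tested) were higher at P21 and 7201 (40.4%) lower. At least 2-fold differences were found for 2461 genes upward (13.8%) and 2691 downward (15.1%). At 4-fold 759 genes were higher and 809 lower, at 8-fold 278 and 206, at 16-fold 106 and 40, and at 32-fold 41 and 13. In 5170 genes (29%) every P21 library lay above every P3 library, and in 5206 (29.2%) every P21 library lay below. The median standard error (SE) of a log2 change was 0.0908, and the median change over all genes -0.025. The balance of calls depends on the scaling. With all libraries set to a common total the median moved by -0.19, and 5409 genes were higher and 8780 lower, so that higher calls made up 38.1% of all calls and not 48.8%. On that scaling 239 genes were at least 8-fold higher and 263 lower, the reverse order, whereas at 16-fold the counts were 95 and 50 and at 32-fold 38 and 14.

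**Figure D2:**
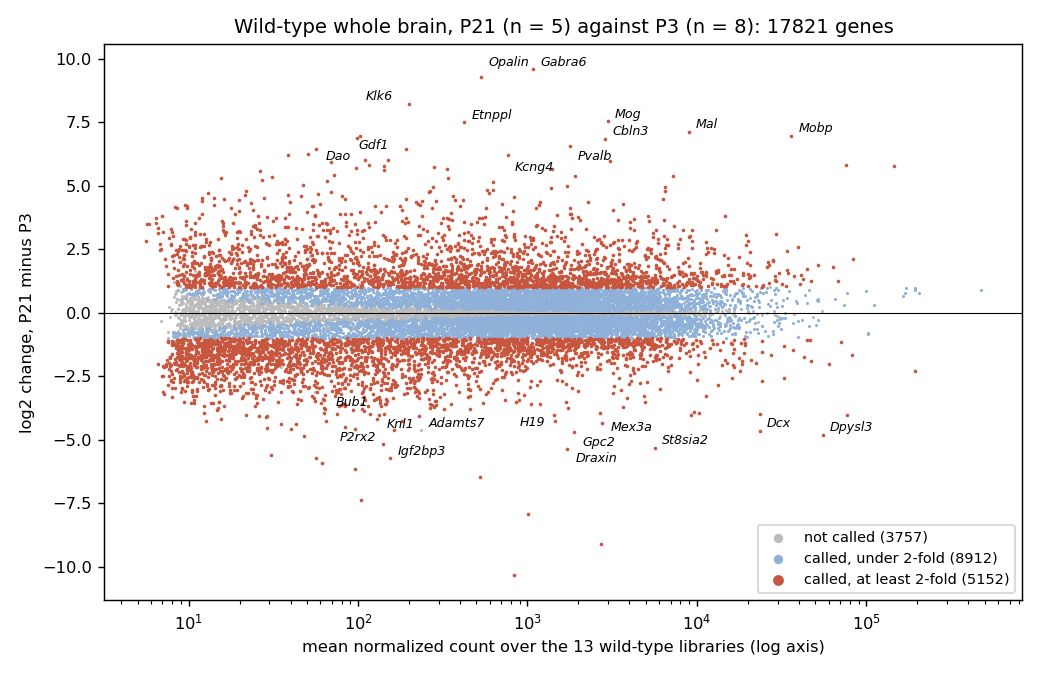
Log2 change from P3 to P21 (vertical axis) against the mean normalized count over the 13 wild-type libraries (horizontal axis, log scale), 1 point per gene. The 5152 genes called and changed at least 2-fold are red, other called genes blue and uncalled genes grey; labelled are the 12 largest changes in each direction among genes with a mean of at least 100 and an ordinary symbol, from Gabra6 at 9.60 to Igf2bp3 at -5.73.

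The steepest rises included genes of cerebellar granule cells, fast-spiking interneurons, oligodendrocytes and astrocytes. Gabra6, the GABA-A receptor subunit of cerebellar granule cells (chromosome 11, 42306437 to 42321072 in GRCm38), lay at 0.922, 2.09 and 17.7 (lowest, median and highest) at P3 and at 2711, 3083, 2779, 3216 and 2205 at P21, a log2 change of 9.60, SE 0.42, adjusted p 4.30e-12. Throughout, the 5 values given for P21 are those of replicates 1 to 5, in that order. Cbln3, a secreted synaptic organizer of the same cells, ran from 40.3 to 112 at P3 (median 57.3) and stood at 7876, 8048, 7507, 7791 and 5758 at P21 (6.84, SE 0.208, adjusted p 8.45e-14). Pvalb, the calcium buffer parvalbumin of fast-spiking interneurons and Purkinje cells, ran from 30.5 to 85.6 at P3 (median 44.2) and stood at 4527, 5077, 4422, 4601 and 4266 at P21 (6.58, SE 0.191, adjusted p 2.49e-14), and Kcng4, a modifier subunit of potassium channels, changed by 6.24. All 5 P21 libraries exceeded all 8 P3 libraries in each of these genes. Opalin, Klk6, Mog, Mal and Mobp, all genes of the myelinating oligodendrocyte, changed by 9.30, 8.24, 7.55, 7.14 and 6.97 on the log2 scale. Opalin read 1568, 1551, 1371, 1481 and 956 at P21 after 0 to 8.34 (median 0.483) at P3, so that its rise is read from a P3 level close to 0 in most libraries. Etnppl, an enzyme that breaks down phosphoethanolamine and marks astrocytes, lay at 1.87, 4.76 and 7.47 (lowest, median and highest) at P3 and at 1411, 1322, 1712, 603 and 436 at P21 (7.51, SE 0.336, adjusted p 3.49e-12), with replicates 4 and 5 lowest at P21. Dao, the D-amino acid oxidase found in cerebellar and hindbrain glia, changed by 6.02. Gdf1, a growth factor gene that shares a transcript with Cers1, changed by 6.46, SE 1.42, adjusted p 0.00111: it was at 68.7, 67.5 and 89.1 in P3 replicates 1 to 3, listed at 0 in the other 5 and at 354 to 545 at P21. The reads of the 2 overlapping genes cannot be separated here.

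The steepest falls included genes of growing neurons, of fetal RNA control and of cell division. Dpysl3, a cytosolic protein of growth cones (chromosome 18, 43320984 to 43438286), lay at 84958, 88263 and 90193 (lowest, median and highest) at P3 and at 3029, 3049, 3047, 3044 and 3537 at P21, with log2 change -4.81, SE 0.0446, adjusted p 1.10e-20. Dcx, the microtubule-binding doublecortin of migrating neurons, ran from 29402 to 43099 at P3 (median 38017) and stood at 1551, 1644, 1374, 1477 and 1394 at P21 (-4.64, SE 0.083, adjusted p 1.15e-16). St8sia2, which puts polysialic acid on the adhesion molecule NCAM, ran from 6845 to 10116 at P3 (median 9327) and stood at 235, 201, 237, 211 and 235 at P21 (-5.32, SE 0.0834, adjusted p 1.44e-17). In all 3 genes the groups were far apart, and P3 replicate 1 was the lowest P3 library for Dcx and St8sia2. Draxin, a repulsive guidance protein, changed by -5.36, and Gpc2, a heparan sulfate proteoglycan of developing axons, by -4.68. Igf2bp3, an oncofetal RNA-binding protein, read 5.81, 4.71, 2.91, 4.74 and 1.34 at P21 after 156 to 318 (median 272) at P3 (-5.73, SE 0.247, adjusted p 1.64e-12), and Mex3a, another RNA-binding protein, changed by -4.35. H19, an imprinted long non-coding RNA, ran from 1637 to 2664 at P3 (median 2451) and stood at 128, 174, 152, 81 and 87.6 at P21 (-4.24, SE 0.174, adjusted p 2.70e-12). Knl1 and Bub1, both parts of the kinetochore machinery of mitosis, changed by -4.19 and -4.04, P2rx2, an ATP-gated channel, by -4.61, and Adamts7, a secreted protease, by -4.07. Features with predicted or pseudogene names, from Gm5641 at -10.32 to Gm19439 at 6.98, were left out of this ranking. Gm5641 and some others fell by more than Igf2bp3, whereas Gm19439 rose by less than Gabra6.

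Cell division was the group that fell as 1 block. Of 31 mitosis genes tested, 31 were lower at P21, each at least 2-fold, with a median log2 change of -3.02; of 29 DNA replication genes, 26 were lower and 1 higher, with a median of -1.63. Mki67, the proliferation marker, lay at 1772, 2178 and 2701 (lowest, median and highest) at P3 and at 129, 134, 157, 142 and 114 at P21 (-4.03, SE 0.101, adjusted p 2.99e-15), and Cdk1, the kinase that starts mitosis, ran from 350 to 543 at P3 (median 439) and stood at 34.2, 41.8, 31.1, 32.8 and 23.9 at P21 (-3.71, SE 0.131, adjusted p 1.50e-13). No P21 library reached the lowest P3 library in either gene. In the replication list Uhrf1, which guides maintenance methylation behind the fork, changed by -3.79, Chaf1b, a histone chaperone, by -3.59, and Tk1 and Rrm2, which make nucleotides, by -3.59 and -3.19. Pcna, the sliding clamp also used in DNA repair, fell by 0.49 with P21 values of 1188 to 1422 and Rrm1 by 0.99, while Gins4 was the member that rose, by 0.30, a call lost with libraries set to a common total (0.11). Within the replication list the log2 changes thus spanned -3.79 to 0.30.

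The promoters of these genes are shown because replication and mitosis genes are textbook targets of a pair of short DNA elements, the E2F site and the CHR (cell cycle genes homology region). In the promoter table of RefSeq for GRCm38.p6, which covers 250 bases before to 50 after a start, 12669 of the genes tested had 16192 promoters. An E2F element (TTTCCCGC, TTTGGCGC or TTTCGCGC, either strand) was found in 3.03% of those promoters, in 11 of 28 promoters of the replication list (39.3%) and in 1 of 28 of the mitosis list (3.57%). The CHR element TTTGAA was found in 12.3% of promoters of tested genes, in 20 of 28 of the mitosis list (71.4%) and in 4 of 28 of the replication list (14.3%). Among all genes at least 2-fold lower at P21 the shares were 4.31% for E2F and 16.7% for CHR, and among those at least 2-fold higher 1.67% and 12.7%. The genes shown were taken after their values were seen, from those of largest change in their list with a match, leaving out genes of 1 chromosome. Cdc6, second in the replication list by this measure, is outside the rule for named genes, and Mcm6, next in order, is given instead. The 250 bases before the start are given 5′ to 3′ along the gene, with both E2F and CHR matches in capitals.
Uhrf1 (chr17:56304063-56304312, plus strand, E2F): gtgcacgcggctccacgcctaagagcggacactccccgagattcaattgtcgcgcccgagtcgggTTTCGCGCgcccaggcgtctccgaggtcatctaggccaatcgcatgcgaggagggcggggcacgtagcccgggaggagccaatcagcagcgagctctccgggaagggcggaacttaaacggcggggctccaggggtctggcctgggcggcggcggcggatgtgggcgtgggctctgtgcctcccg
Mcm6 (chr1:128359706-128359955, minus strand, E2F): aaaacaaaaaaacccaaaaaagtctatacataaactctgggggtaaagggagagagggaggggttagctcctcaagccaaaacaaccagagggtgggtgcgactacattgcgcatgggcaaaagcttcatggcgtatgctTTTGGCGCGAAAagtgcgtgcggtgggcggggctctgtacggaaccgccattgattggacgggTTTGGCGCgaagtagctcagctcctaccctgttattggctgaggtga
Mki67 (chr7:135716380-135716629, minus strand, CHR): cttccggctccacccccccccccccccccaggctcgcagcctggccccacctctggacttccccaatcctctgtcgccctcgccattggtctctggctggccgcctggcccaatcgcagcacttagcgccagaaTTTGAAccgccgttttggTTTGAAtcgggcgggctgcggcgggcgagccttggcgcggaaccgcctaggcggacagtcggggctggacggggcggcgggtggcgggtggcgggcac
Cdk1 (chr10:69352913-69353162, minus strand, E2F and CHR): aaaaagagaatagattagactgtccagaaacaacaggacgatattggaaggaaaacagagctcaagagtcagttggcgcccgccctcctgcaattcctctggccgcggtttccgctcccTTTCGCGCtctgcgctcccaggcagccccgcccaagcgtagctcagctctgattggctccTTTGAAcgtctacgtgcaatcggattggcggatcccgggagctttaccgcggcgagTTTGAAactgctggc
Mcm6, a subunit of the replicative helicase, held 3 E2F matches, 2 of which overlap on opposite strands, and its normalized count read 263, 264, 253, 268 and 308 at P21 after 1138 to 1416 (median 1346) at P3 (-2.26, SE 0.0695, adjusted p 2.99e-14). Mki67 and Cdk1 each held 2 CHR matches, and Cdk1 also held 1 E2F match, TTTCGCGC, the first run of capitals in its line. A match is only a run of letters and says nothing of whether a factor bound there.

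Progenitor and differentiation genes fell as well, but less evenly. Of 19 radial glia and progenitor genes 15 were lower and 2 higher, with a median of -0.79. Fabp7, the fatty acid carrier of radial glia, lay at 15693, 17108 and 18715 (lowest, median and highest) at P3 and at 1304, 1580, 1106, 3095 and 2457 at P21 (-3.27, SE 0.197, adjusted p 1.37e-09), and Nes, the filament protein nestin, changed by -2.01. Notch1, Notch2 and Notch3, receptors that keep progenitors undifferentiated, changed by -1.11, -0.75 and -1.08, and their ligands Dll1 and Dll3 by -1.54 and -1.59. The members that rose were Prom1 at 1.34 and Hes1 at 0.40, the latter not called with a common total (0.22). Of 25 neurogenic transcription factors 20 were lower, 11 of them at least 2-fold, led by Sox11 (-3.53, SE 0.134, adjusted p 1.08e-12) and Sox4 (-2.98), partners in the differentiation of new neurons. Neurod1, a factor that granule cells of the cerebellum keep in adulthood, was higher at P21 (1.20, SE 0.15, adjusted p 2.03e-06). Emx1, a factor of the dorsal forebrain, was called too (0.26, SE 0.115, adjusted p 0.0479), and the list's count of 2 higher genes became 1 when any of 10 libraries, among them P3 replicate 1 and P21 replicate 5, was left out. In the cerebellum list of granule progenitors and Hedgehog targets 9 of 10 genes were lower, with a median of -2.0. Atoh1, the factor that specifies those progenitors, was at 24.1 to 75.1 at P3 and listed at 0 in all 5 P21 libraries. The Hedgehog receptor Ptch1 was the exception, at 0.28 (0.095 and not called with a common total), whereas the effectors Gli1 and Gli2 changed by -0.97 and -1.34.

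Cytoskeleton genes split into a falling and a rising set. Summed over 12 tubulin genes, normalized counts ran from 595416 to 717085 at P3 and from 222385 to 286121 at P21. Of the 12 genes 8 were lower and 4 higher, beside 40.4% and 38.5% of all genes tested. Tubb2b, a beta-tubulin of young neurons, lay at 107589, 120772 and 131333 (lowest, median and highest) at P3 and at 7284, 7484, 7913, 7438 and 6566 at P21 (-4.03, SE 0.0579, adjusted p 4.92e-18). Tuba1a, the main alpha-tubulin of the developing brain, ran from 254006 to 302620 at P3 (median 273891) and stood at 52994, 55970, 56138, 57042 and 65320 at P21 (-2.28, SE 0.0596, adjusted p 4.78e-15). Tubb5 and Tubb3 changed by -2.01 and -1.74. In the other direction Tubb4a, abundant in adult brain and in oligodendrocytes, ran from 11161 to 17014 at P3 (median 11889) and stood at 44793, 43868, 45815, 44901 and 49256 at P21 (1.80, SE 0.101, adjusted p 6.20e-11), and Tuba8 and Tuba4a changed by 3.95 and 2.55. The ratio of Tubb4a to Tubb2b moved from a median of 0.104 at P3 to 6.04 at P21 with no overlap. Tubulin genes are close copies of one another. Their counts are estimates, and how well reads were divided between the copies cannot be checked from the deposited values. Among microtubule-associated proteins, Map1b (-1.65), Mapt (-1.89) and Dpysl5 (-3.99) fell, while Map1a (1.30) and Tppp, a tubulin polymerizer of oligodendrocytes (3.04), rose. Of the neurofilaments, Nefh rose by 2.48 and Nefm by 1.05, and Ina fell by 0.23. Of 33 axon guidance genes 26 were lower, 12 of them at least 2-fold, and 4 higher. Plxna3, a semaphorin receptor, changed by -2.80 and stood at 3021 and 3990 in P3 replicates 1 and 2 against a P3 median of 6608; Nrp2, Robo1 and Dcc, receptors for semaphorins, slits and netrins, changed by -1.82, -1.73 and -1.72. The 4 that rose were Unc5b (1.73), Robo3 (1.17), Slit3 (1.02) and Unc5a (0.67).

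**Figure D3:**
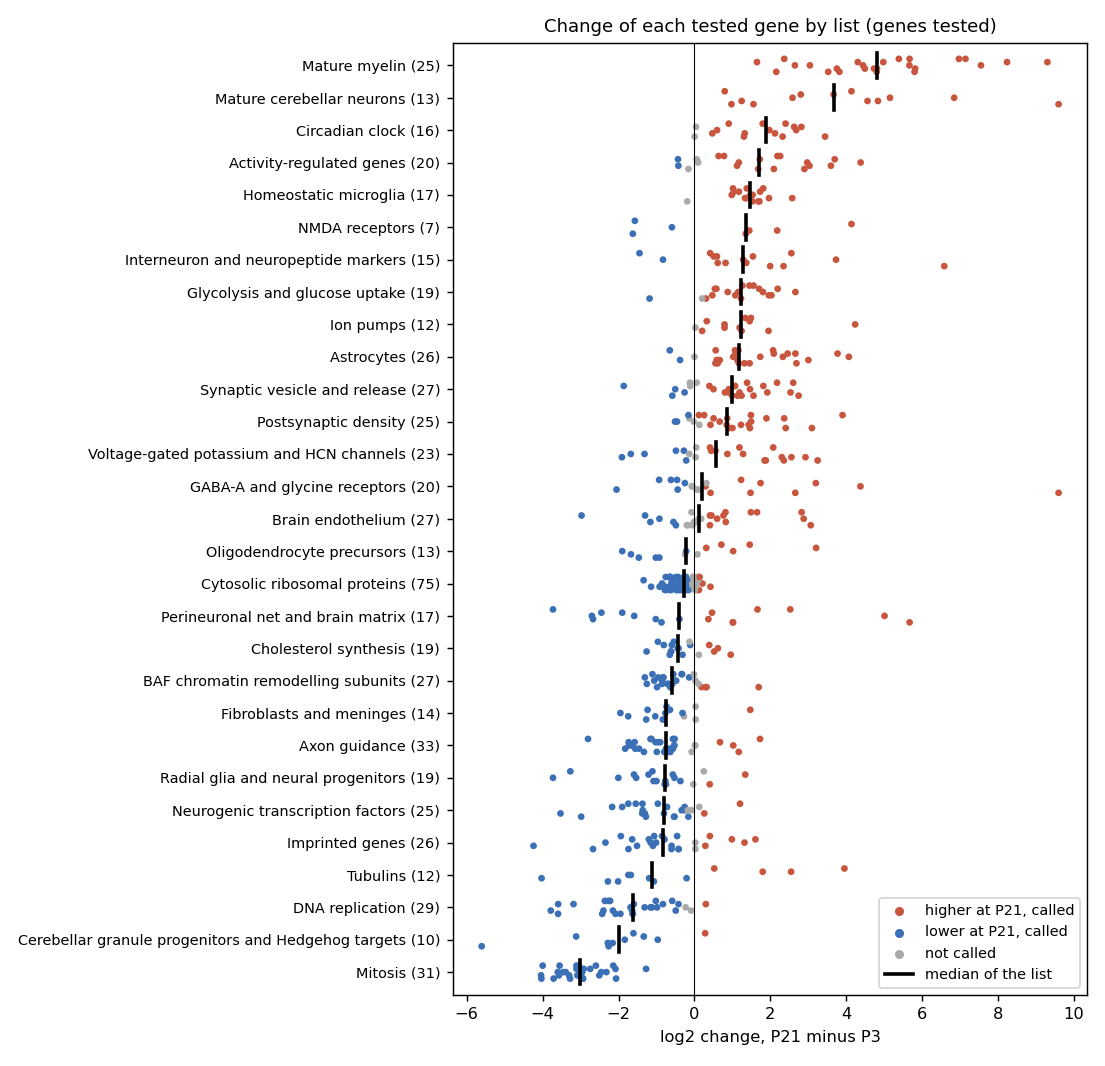
Log2 change from P3 to P21 (horizontal axis) of every tested gene in 29 lists (rows, number of genes tested in brackets), red where called higher, blue where called lower and grey where not called, with a black bar at the list's median. Medians run from -3.02 for mitosis to 4.80 for mature myelin, and receptor, channel, tubulin and matrix lists hold members on both sides of 0.

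Glutamate receptors changed subunit by subunit. NMDA receptors combine the obligatory subunit Grin1 with Grin2 and Grin3 subunits that set their kinetics. Grin2a, the subunit of mature synapses, lay at 884, 1031 and 1472 (lowest, median and highest) at P3 and at 5124, 4379, 4715, 5142 and 5259 at P21 (2.18, SE 0.112, adjusted p 2.06e-11), while Grin2b, the subunit that precedes it, ran from 17759 to 22596 at P3 (median 19848) and stood at 13869, 11277, 12400, 13224 and 15794 at P21 (-0.59, SE 0.0717, adjusted p 8.50e-07). The ratio Grin2a to Grin2b had a median of 0.05 at P3 and 0.38 at P21, and the 2 ages did not overlap; since counts are not corrected for length, only the change of such a ratio is read. Grin2c, the subunit of cerebellar granule cells, ran from 115 to 172 at P3 (median 151) and stood at 3024, 2941, 2690, 2789 and 2003 at P21 (4.14, SE 0.107, adjusted p 4.39e-15). Grin2d and Grin3a, subunits of the young brain, changed by -1.57 and -1.62, and Grin1 by 1.35. Of 17 AMPA and kainate receptor genes 9 were higher and 6 lower, beside 38.5% and 40.4% of all genes tested. Gria3 changed by 1.31, Gria1 by 0.65 and Gria4 by 0.55, and Gria2, the subunit that blocks calcium entry, by -0.45, SE 0.0769, adjusted p 3.97e-05; 4 of its P21 values lay at 11038 to 12066, below all P3 libraries, and replicate 5 at 13345 was above P3 replicate 1 at 12652. The auxiliary subunits moved apart: Cacng3 rose by 1.72 and Cacng7 by 0.98, and Cacng4 fell by 1.67. Kainate subunits Grik1, Grik2 and Grik3 changed by -1.07, -0.82 and -0.89.

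Subunits of inhibitory receptors also moved in different directions. Gabra2, an alpha subunit of GABA-A receptors already used at birth, was at 1300 to 1693 at P3 and 1561 to 1736 at P21 and was not called (log2 change 0.06, adjusted p 0.393). Gabrd, the extrasynaptic delta subunit, ran from 105 to 218 at P3 (median 122) and stood at 2634, 2735, 2758, 2976 and 3263 at P21 (4.37, SE 0.165, adjusted p 4.88e-13). Gabra4, its frequent partner, changed by 1.74, and Gabra5 by -0.93. For glycine receptors, Glra2, the fetal alpha subunit, ran from 2427 to 2983 at P3 (median 2758) and stood at 678, 644, 630, 638 and 700 at P21 (-2.05, SE 0.0516, adjusted p 2.99e-15), and the adult Glra1 changed by 1.48 and the shared beta subunit Glrb by 1.23. Over the whole list of 20 genes 9 were higher, 6 lower and 5 not called, beside 38.5% higher and 40.4% lower among all genes tested. Both chloride carriers that set the direction of GABA currents rose: the extruder Slc12a5 (KCC2) lay at 10173, 10335 and 11605 (lowest, median and highest) at P3 and at 20656, 20168, 19396, 21018 and 22946 at P21 (0.98, SE 0.0474, adjusted p 6.62e-12), and the importer Slc12a2 (NKCC1) ran from 1619 to 1988 at P3 (median 1851) and stood at 4444, 4310, 4228, 4545 and 2554 at P21 (1.10, SE 0.111, adjusted p 1.08e-07). P21 replicate 5 was the lowest P21 library for Slc12a2, and the ratio Slc12a5 to Slc12a2, with medians of 5.56 and 4.65, overlapped between the ages. Slc12a2 is also made by oligodendrocytes and choroid plexus, and a whole-brain value does not separate these from neurons. In all, 9 of 11 chloride and bicarbonate genes were higher and 2 lower. Carbonic anhydrases Car7 and Car2 changed by 3.64 and 2.50, and the potassium chloride carrier Slc12a7 by -1.19.

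**Figure D4:**
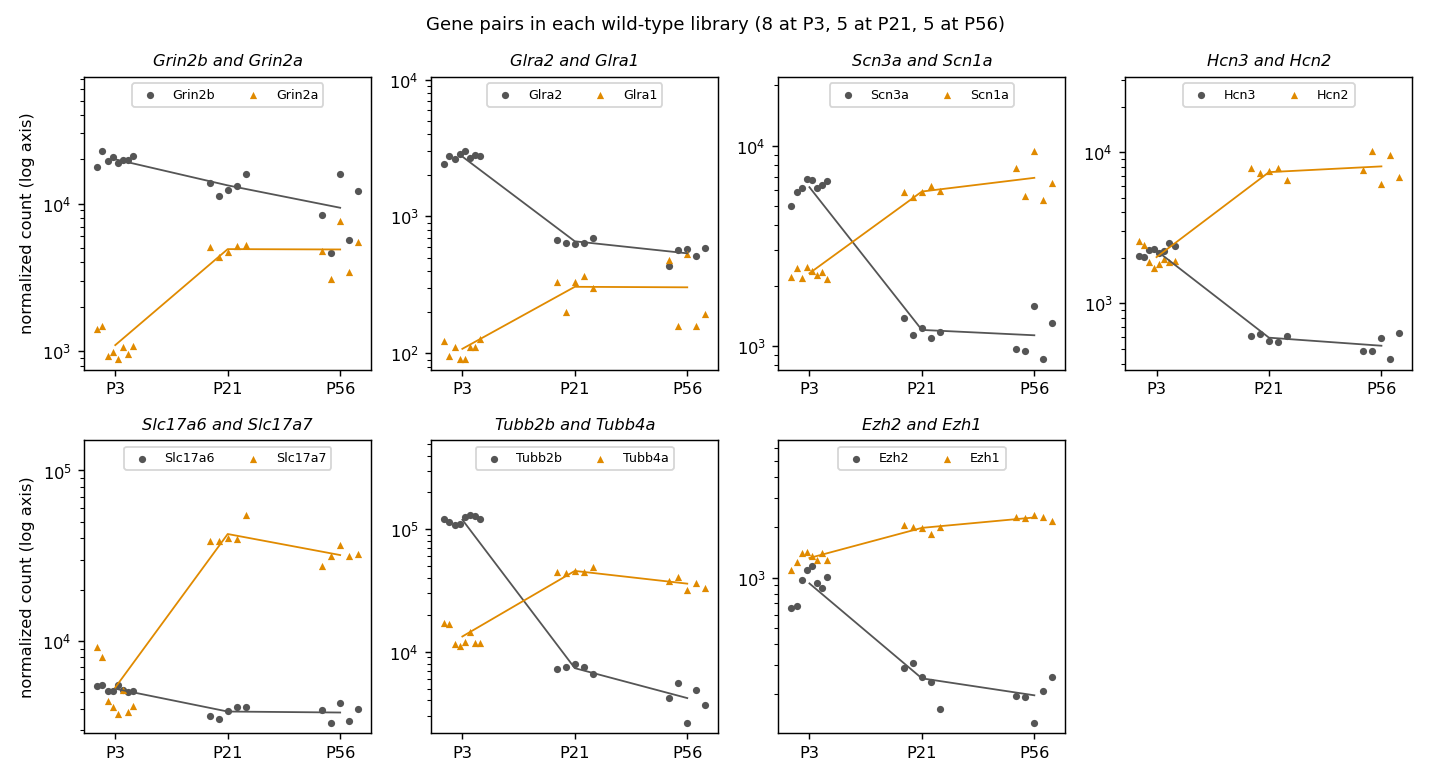
Normalized counts (vertical axes, log scale) of 7 gene pairs in each wild-type library at P3 (8), P21 (5) and P56 (5), circles for the first and triangles for the second gene named, with lines through the means. In all 7 pairs the first gene is lower in every P21 library than in any P3 library, and the second higher.

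Genes of transmitter synthesis and transport mostly rose. Slc17a7, the vesicular glutamate transporter VGLUT1 of cortex, hippocampus and cerebellar granule cells, lay at 3737, 4289 and 9203 (lowest, median and highest) at P3 and at 38636, 38587, 40304, 39446 and 54908 at P21 (3.06, SE 0.219, adjusted p 1.27e-08), with the highest P3 values in replicates 1 and 2 and the highest P21 value in replicate 5. Slc17a6, the transporter VGLUT2 of thalamus and brainstem, changed by -0.45, SE 0.0477, adjusted p 1.83e-07, and the ratio of the 2 genes went from a median of 0.844 to 10.6. Gad1 and Gad2, which make GABA, changed by 1.10 and 0.97. Slc1a2, the main glutamate uptake carrier of astrocytes, ran from 10602 to 17188 at P3 (median 11562) and stood at 76464, 69961, 76196, 69837 and 48059 at P21 (2.46, SE 0.129, adjusted p 4.58e-11). In all, 11 of 15 genes of this list were higher and 3 lower.

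Genes of voltage-gated ion channels changed in both directions. Among 9 sodium channel genes 5 were higher and 3 lower, beside 38.5% and 40.4% of all genes tested. Scn1a, the sodium channel of fast-spiking interneurons, rose by 1.36 and Scn8a, that of adult nodes of Ranvier, by 0.77, whereas Scn3a, the neonatal channel, lay at 5000, 6241 and 6791 (lowest, median and highest) at P3 and at 1377, 1127, 1229, 1094 and 1178 at P21 (-2.37, SE 0.0725, adjusted p 2.96e-14). Scn9a ran from 824 to 1544 at P3 (median 1400) and stood at 135, 114, 105, 124 and 93.9 at P21 (-3.50, SE 0.139, adjusted p 9.49e-13), and Scn2a was not called, although it was, at 0.10, without P3 replicate 2. The beta subunits that tune these channels rose more: Scn4b ran from 69.4 to 372 at P3 (median 95.4) and stood at 7320, 6440, 7429, 8202 and 9220 at P21 (6.00, SE 0.366, adjusted p 4.63e-09), and Scn2b changed by 3.61, while Scn3b fell by 1.22. Of 23 potassium and HCN channel genes 14 were higher and 6 lower. Kcna1, at the flanks of nodes, changed by 3.25, and the subunits Kcnab2 and Kcnab1 by 2.93 and 2.36. The pacemaker channel Hcn2 ran from 1704 to 2605 at P3 (median 1892) and stood at 7813, 7242, 7528, 7825 and 6540 at P21 (1.88, SE 0.0909, adjusted p 8.77e-12), while Hcn3 and Hcn4 changed by -1.91 and -1.68. The ratio Hcn2 to Hcn3 went from a median of 0.841 to 12.9. Of 15 calcium channel genes 6 were higher and 7 lower, shares close to the 38.5% and 40.4% of all genes tested. Cacna1h, a low-threshold channel, changed by -1.76, the presynaptic Cacna1b by -1.0 and Cacna1a by 0.38, and the beta subunit Cacnb4 by 1.79. Pumps that restore ion gradients rose in 11 of 12 genes, with a median of 1.22, among them Atp2a3, a calcium pump of Purkinje cells (4.23); Atp2b4 was not called.

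The synapse lists rose in most but not all members. Of 27 vesicle and release genes 20 were higher, 13 of them at least 2-fold, and 4 lower, and of 25 postsynaptic genes 19 were higher and 3 lower. With a common total 7 vesicle and 5 postsynaptic genes were lower, and after quantile normalization 6 postsynaptic genes. Snap25, of the fusion machinery, changed by 2.60, and Vamp1 and Syt2, the forms used at fast synapses, by 2.74 and 2.53. Camk2a, the kinase of plasticity, lay at 5990, 6255 and 12205 (lowest, median and highest) at P3 and at 67946, 64203, 69019, 58877 and 60217 at P21 (3.10, SE 0.185, adjusted p 8.90e-10), while its sister Camk2b changed by 0.42, and by 0.1 without a call after quantile normalization. Itpka and Nrgn, a kinase and a calmodulin buffer of spines, changed by 3.90 and 2.40. In the other direction Syn3, the synapsin of young neurons, fell by 1.86, Doc2a by 0.58, Syt4 by 0.51 and Doc2b by 0.26, and after the synapse Homer2 fell by 0.51 and Dlgap4 by 0.46.

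Genes of the brain's extracellular matrix went both ways. Of 17 genes 9 were lower and 8 higher, beside 40.4% and 38.5% of all genes tested. Tnc, the embryonic tenascin, lay at 3536, 5933 and 6829 (lowest, median and highest) at P3 and at 453, 415, 378, 496 and 376 at P21 (-3.73, SE 0.137, adjusted p 7.58e-13), and Vcan and Ncan, young lecticans, changed by -2.45 and -1.59. Hapln4 and Hapln2, link proteins of synaptic and nodal matrix, changed by 5.01 and 5.67, and Acan, the core of perineuronal nets, by 1.02. Tnr, the tenascin of adult nets, changed by 0.46. Of the hyaluronan synthases, Has2 and Has3 changed by -2.67 and -2.70. Among 15 interneuron and neuropeptide genes 13 were higher, with Vip at 3.73, Cck at 2.55 and Penk at 2.00; Reln and Lhx6 fell by 0.83 and 1.45. The mature cerebellar list rose in 13 of 13 genes, with a median of 3.67, including the Purkinje cell genes Ppp1r17 (5.15) and Pcp2 (4.56) and the organizer Cbln1 (1.24).

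Of 20 genes that report neuronal activity 15 rose by P21 (median 1.70). Arc, a synaptic capsid-like protein induced by firing, lay at 201, 237 and 371 (lowest, median and highest) at P3 and at 6168, 6383, 5510, 5393 and 4063 at P21 (4.38, SE 0.141, adjusted p 8.29e-14). Egr1 and Fos, transcription factors induced within minutes, changed by 3.70, SE 0.158, adjusted p 8.90e-12 and 2.90, SE 0.113, adjusted p 5.06e-13. Bdnf, a neurotrophin released on activity, ran from 214 to 369 at P3 (median 273) and stood at 712, 783, 727, 1049 and 1281 at P21 (1.68, SE 0.149, adjusted p 2.14e-08), with replicates 4 and 5 highest at P21. Npas4, which answers to calcium entry alone, was not called: it read 517, 455, 384, 474 and 350 at P21 after 284 to 489 (median 436) at P3 (0.064, SE 0.132, adjusted p 0.664). Nr4a2 and Mef2a were not called either, but Nr4a2 was without P21 replicate 5 (-0.27) and Mef2a without P3 replicate 2 (0.13), and Nr4a3 and Mef2c fell by 0.42 and 0.43.

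Most clock genes were higher at P21. Of 16 clock genes 14 were higher and 0 lower, with a median of 1.89. Arntl and Cry1, the activator BMAL1 and a repressor, were at 886 to 1011 at P3 and 850 to 992 at P21 and at 773 to 919 at P3 and 737 to 1022 at P21, with log2 changes of 0.0057, SE 0.0526, adjusted p 0.925 and 0.042, SE 0.0722, adjusted p 0.601, neither of them called. Dbp, an output factor, lay at 227, 295 and 360 (lowest, median and highest) at P3 and at 3353, 3310, 2866, 3171 and 3528 at P21 (3.44, SE 0.103, adjusted p 2.39e-14), and its relatives Hlf and Tef changed by 2.68 and 2.12. Nr1d1, the repressor REV-ERB alpha, ran from 453 to 889 at P3 (median 493) and stood at 3270, 3197, 2868, 3843 and 4658 at P21 (2.63, SE 0.17, adjusted p 9.99e-10), and Ciart, Bhlhe40 and Bhlhe41 changed by 2.82, 2.40 and 2.32. Per1, Per2 and Per3 changed by 1.30, 1.33 and 1.98. Clock genes cycle over the day, so a difference in the hour of collection cannot be told apart from age. The E-box CACGTG, the element bound by CLOCK and BMAL1, was present in 6 of 19 promoters of the list (31.6%) against 9.2% of promoters of tested genes. Ciart was picked, after its values were seen, from the clock genes of largest change with a match. Its promoter held 3 matches, in capitals, in the 250 bases before its start.
Ciart (chr3:95882229-95882478, minus strand, E-box): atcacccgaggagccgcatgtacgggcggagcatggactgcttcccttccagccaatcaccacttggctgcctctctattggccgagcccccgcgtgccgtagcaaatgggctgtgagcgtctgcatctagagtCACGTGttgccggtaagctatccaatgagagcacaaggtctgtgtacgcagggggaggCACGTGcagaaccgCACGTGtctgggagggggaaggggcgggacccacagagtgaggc

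Signalling by thyroid hormone, which times much of postnatal brain development, is represented by a list in which 4 of 10 genes were higher and 2 lower, beside 38.5% and 40.4% of all genes tested. The receptor Thrb lay at 284, 419 and 732 (lowest, median and highest) at P3 and at 1096, 1141, 1036, 1273 and 1376 at P21 (1.44, SE 0.178, adjusted p 1.66e-06), while the receptor Thra fell by 0.37. Dio2, the enzyme of astrocytes that activates the hormone, changed by 2.41, and the hormone's direct target genes Klf9 and Hr by 2.76 and 2.43.

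Most astrocyte genes were higher at P21. Of 26 astrocyte genes 23 were higher, 18 at least 2-fold, and 2 lower, with a median of 1.16. S100b, a calcium-binding protein, lay at 297, 390 and 823 (lowest, median and highest) at P3 and at 7494, 8275, 7881, 7725 and 6325 at P21 (4.07, SE 0.206, adjusted p 1.38e-10), and Kcnj10, the potassium channel that clears potassium after firing, ran from 1835 to 2914 at P3 (median 1977) and stood at 15845, 15506, 15912, 14391 and 8524 at P21 (2.69, SE 0.158, adjusted p 4.76e-10). Ntsr2, Gjb6 and Aldoc changed by 3.77, 3.00 and 2.66. The fate factor Sox9 and the GABA carrier Slc6a11 fell by 0.65 and 0.38, and Aldh1l1, named after its values were seen as the 1 uncalled member, was at 2345 to 3539 at P3 and 2203 to 3259 at P21. Replicate 5 was the lowest P21 library in Kcnj10, Ntsr2, Gjb6, Aldoc and S100b alike.

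Along the oligodendrocyte lineage, genes of mature myelin were all higher, and those of precursors were not. Of 13 precursor genes 5 were higher and 6 lower, close to the 38.5% and 40.4% of all genes tested. Pdgfra, the receptor that drives their division, lay at 3530, 4086 and 4675 (lowest, median and highest) at P3 and at 2551, 2347, 2440, 2210 and 1050 at P21 (-1.02, SE 0.171, adjusted p 6.36e-05), whereas Sox10, kept through the lineage, changed by 1.46. Among genes of newly formed oligodendrocytes 6 of 10 were higher and 2 lower, beside 38.5% and 40.4% of all genes tested. Bcas1 and Enpp6, which mark cells about to myelinate, changed by 3.25 and 2.85. Gpr17, a receptor of the stage before, ran from 2471 to 3693 at P3 (median 2819) and stood at 5910, 7014, 6539, 6272 and 3214 at P21 (0.91, SE 0.166, adjusted p 1.37e-04), with replicate 5 inside the P3 range, and Tcf7l2 changed by -1.76. The 25 mature myelin genes were all higher, with changes from 1.65 to 9.30 and a median of 4.80. Mal, a membrane protein of myelin, lay at 104, 136 and 338 (lowest, median and highest) at P3 and at 25827, 25587, 25882, 23924 and 13474 at P21 (7.14, SE 0.295, adjusted p 6.73e-11). In P3 replicates 1 and 2 Mal stood at 338 and 272, above the other P3 libraries; without these 2 and P21 replicate 5 the median of the list was 5.12.

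Genes of glucose use mostly rose. Of 19 glycolysis and glucose uptake genes 17 were higher and 1 lower, with a median of 1.23, and of 20 genes of the tricarboxylic acid cycle 19 were higher, with a median of 0.63. Aldoa and Eno2, glycolytic enzymes abundant in neurons, changed by 2.03 and 2.19, and Slc2a1, the glucose carrier of the blood-brain barrier, lay at 1279, 1432 and 1775 (lowest, median and highest) at P3 and at 5458, 5692, 6467, 6083 and 2900 at P21 (1.80, SE 0.157, adjusted p 3.87e-08). Phosphofructokinase changed in make-up: Pfkp ran from 16341 to 26077 at P3 (median 24730) and stood at 9687, 9222, 9653, 9942 and 12472 at P21 (-1.18, SE 0.102, adjusted p 1.53e-08), and Pfkm and Pfkl changed by 1.56 and 0.54. Lactate dehydrogenase did too, Ldhb changing by 1.96, SE 0.0791, adjusted p 8.17e-13 and Ldha, not called, by 0.20, SE 0.107, adjusted p 0.0923; without P3 replicate 1 Ldha was called at 0.26. In the cycle Mdh1, of the malate shuttle, changed by 1.71 and Cs, the entry enzyme, was not called (-0.10). Ketone bodies from milk fat feed the suckling brain. In the ketone list of 8 genes 4 were lower and 1 higher (2 higher without P3 replicate 2). Of all genes tested 40.4% were lower and 38.5% higher. The carrier Slc16a7 changed by -1.06 and Acat1 by -0.67, while Oxct1, the enzyme that commits ketones to use, was at 13366 to 18174 at P3 and 14548 to 16697 at P21 and was not called.

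Cholesterol synthesis was lower at P21 in 13 of 19 genes and higher in 4, with a median of -0.43. Lss and Sqle, which act on squalene epoxide and on squalene, changed by -0.96, SE 0.0768, adjusted p 4.11e-09 and -0.81, SE 0.0445, adjusted p 3.57e-11. Of the 4 that rose, Ebp (0.96), Msmo1 (0.62) and Sc5d (0.52) act after lanosterol, as do some of the genes that fell.

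Chromatin and RNA-binding genes were mostly lower. For DNA methylation, 9 of 12 genes were lower and 2 higher: Dnmt1 and Dnmt3a, the maintenance and de novo enzymes, changed by -1.18 and -0.77, Tet1, an oxidase of methylcytosine, by -1.31, and Mbd2 rose by 0.94. In the polycomb list Ezh2, the methyltransferase of dividing cells, lay at 653, 946 and 1167 (lowest, median and highest) at P3 and at 285, 307, 252, 235 and 162 at P21 (-1.89, SE 0.16, adjusted p 1.15e-08), whereas its relative Ezh1 rose by 0.60 and the reader Cbx7 by 2.40. The ratio Ezh1 to Ezh2 went from a median of 1.42 to 7.77. High-mobility proteins Hmga2, Hmgb2 and Hmgb3 changed by -4.05, -2.52 and -2.10. BAF remodelling subunits were lower in 20 of 27 cases and higher in 4. Actl6a and Actl6b, the subunits of progenitors and of neurons, both fell, by 0.58 and 0.52, and their ratio overlapped between the ages. Among 32 splicing and RNA-binding genes 25 were lower and 5 higher: Ptbp2, which holds back neuronal exons, changed by -1.18, Igf2bp1 and Igf2bp2 by -4.56 and -2.53 and Lin28b by -1.90, and Mbnl2 and Mbnl1, which promote adult splicing, by 2.51 and 1.01. Rbfox3, the neuronal marker NeuN, rose by 1.10.

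Of 26 imprinted genes 19 were lower, 12 at least 2-fold, and 5 higher. Nnat, a membrane protein of young neurons, lay at 29995, 36957 and 38639 (lowest, median and highest) at P3 and at 6333, 3100, 6561, 6117 and 6745 at P21 (-2.67, SE 0.153, adjusted p 2.62e-10), Magel2 changed by -2.35, and Igf2, made in meninges and choroid plexus, by -0.60. Impact, Nap1l5, Snrpn, Gnas and Sgce rose, by 1.61, 1.32, 0.99, 0.41 and 0.29; Gnas changed by -0.0029 after quantile normalization, and Sgce was not called with a common total (0.1). Of 21 apoptosis genes 13 were lower and 7 higher (4 with a common total), beside 40.4% and 38.5% of all genes tested. Bbc3, an activator of cell death, and Apaf1, the scaffold of the apoptosome, changed by -1.66 and -1.19, and the survival genes Bcl2l2 and Bcl2l1 rose by 1.75 and 0.61. Cytosolic ribosomal protein genes were lower in 53 of 75 cases by small amounts, with a median of -0.28, and 4 were higher (2 without P21 replicate 2, and 8 without P3 replicates 1 and 2 and P21 replicate 5); Rplp0 changed by -1.14 and Rpl10 by -1.34. These genes have many pseudogene copies, so single values are uncertain.

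Of 17 microglia genes of the resting state 16 rose (median 1.47). Tmem119, a marker of mature microglia, lay at 99.6, 110 and 140 (lowest, median and highest) at P3 and at 768, 724, 789, 762 and 509 at P21 (2.58, SE 0.122, adjusted p 5.19e-12), and P2ry12 and C1qa changed by 1.68 and 1.81. Sall1 was not called, but was without P21 replicate 1 (-0.24) or 2 (-0.23) or without P3 replicate 7 (-0.22). In the list of phagocytic microglia of the first week 4 of 11 genes were higher and 4 lower, near the shares of all genes tested. Lpl, also made by neurons, and Igf1 changed by -1.39 and -1.20, and the lysosomal genes Ctsd and Cd68 rose by 1.18 and 0.93. Clec7a and Itgax, which define the phagocytic state most sharply, were low at both ages, at 8.42 to 39.8 at P3 and 6.59 to 24 at P21 and at 3.95 to 36.9 at P3 and 1.08 to 13.2 at P21, and were not called. Of 9 genes of MHC class I and antigen processing 5 were higher and 2 lower, beside 38.5% and 40.4% of all genes tested. B2m and H2-K1, the light chain and a heavy chain of the class I molecule, rose by 1.40 and 1.30, whereas Tap1, a subunit of the peptide transporter, and Nlrc5, an activator of class I genes, changed by -1.22 and -1.13; Nlrc5 was not called after quantile normalization (-0.82).

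Genes of blood vessels were divided. Of 27 endothelial genes 12 were higher, 6 lower and 9 not called, beside 38.5% higher and 40.4% lower among all genes tested. Without P3 replicates 1 and 2 and P21 replicate 5, 17 were higher and 6 lower. Aplnr and Kdr, receptors of sprouting vessels, changed by -2.97, SE 0.139, adjusted p 5.49e-12 and -1.30, SE 0.157, adjusted p 1.29e-06. Slco1a4, a transporter of the mature barrier, ran from 147 to 241 at P3 (median 201) and stood at 1918, 1695, 1713, 1563 and 697 at P21 (2.88, SE 0.197, adjusted p 1.24e-09), and Ly6a and Ly6c1 changed by 3.06 and 2.82. Pericyte and smooth muscle genes were called higher in 4 of 10 cases, near the 38.5% of all genes tested, and in 8 without P21 replicate 5. In the other direction 1 was lower, or 2 without P3 replicate 5 or P21 replicate 3. Fibroblast and meningeal genes were lower in 10 of 14 cases, among them Col3a1 (-1.95), Postn (-1.75) and Col1a1 (-1.27); Sparc, which astrocytes and endothelium also make, was the member that rose (1.47). Of 13 choroid plexus and ependyma genes 4 were higher and 4 lower, beside 38.5% and 40.4% of all genes tested. Without P3 replicates 1 and 2 and P21 replicate 5 these counts were 7 and 4. The mean of P21 replicate 5 over the list (log2 scale, 7.16) lay below all P3 libraries. Ttr, the carrier of thyroxine and retinol, was at 7160 to 13375 at P3 and 11567 to 22545 at P21 (0.73, SE 0.166, adjusted p 9.32e-04).

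Lists for blood and neighbouring tissues were looked at because these can be collected with a brain. Red cell genes were higher in 6 of 6 cases, and their summed counts ran from 1704 to 17943 at P3 and from 31028 to 80945 at P21. Hbb-bs, a beta globin, lay at 576, 1651 and 5938 (lowest, median and highest) at P3 and at 11252, 28199, 28079, 12282 and 21110 at P21 (3.27, SE 0.565, adjusted p 1.96e-04), with P3 replicates 1 and 2 the highest at that age. Globin genes are near-identical copies, so single values are uncertain, and the part of residual blood in other results was not tested. Of the pituitary and pineal list only Pomc, also a hypothalamic gene, passed the filter, at 17.1 to 36.3 at P3 and 72 to 92.2 at P21. In the list of olfactory epithelium and muscle 4 of 7 genes tested were higher and 3 lower, with a median of 0.16. Of all genes tested 38.5% were higher and 40.4% lower. Omp, of olfactory sensory neurons, was at 7.63 to 29.4 at P3 and at 116 to 193 at P21 (3.13), while Cnga2, a channel subunit of the same cells, changed by -1.52, and by -0.86 without a call with replicates 2 and 3 as the only P21 libraries.

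Of 20 growth factor and receptor genes 6 were higher and 9 lower, near the shares of all genes tested. Igfbp6 rose by 3.15, and Ngfr, the low-affinity neurotrophin receptor p75, ran from 564 to 820 at P3 (median 660) and stood at 169, 172, 190, 189 and 146 at P21 (-1.94, SE 0.0951, adjusted p 8.07e-12). Ntrk2, the receptor of BDNF, changed by 0.39, and by 0.12 without a call after quantile normalization. Gfra1 was not called, and Gdnf was called, at 0.57, only when P21 replicate 1 was left out, among the fits that leave out 1 library.

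Gene classes differed in the share that changed. In GENCODE's TEC class, loci still awaiting experimental evidence of a transcript, 391 of 653 genes (59.9%) were at least 2-fold lower at P21 and 36 (5.51%) at least 2-fold higher, with a median of -1.33. Processed pseudogenes were at least 2-fold lower in 28.4% and higher in 5.92% of 169 cases. For 15300 protein-coding genes the shares were 12.3% and 13.8%, and for 574 lincRNA genes 23% and 19.9%. With genes split by exon length into 5 equal classes, the median change went from 0.19 in the class of shortest genes (156 to 2202 bases) to -0.22 in the class of longest genes (7103 to 123179 bases). The 15 genes of the mitochondrial genome tested had a median of 0.89, and 14 of them were called higher. The libraries do not record strand, so reads of such loci and of genes they overlap cannot be separated, and the part of that overlap was not tested.

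**Figure D5:**
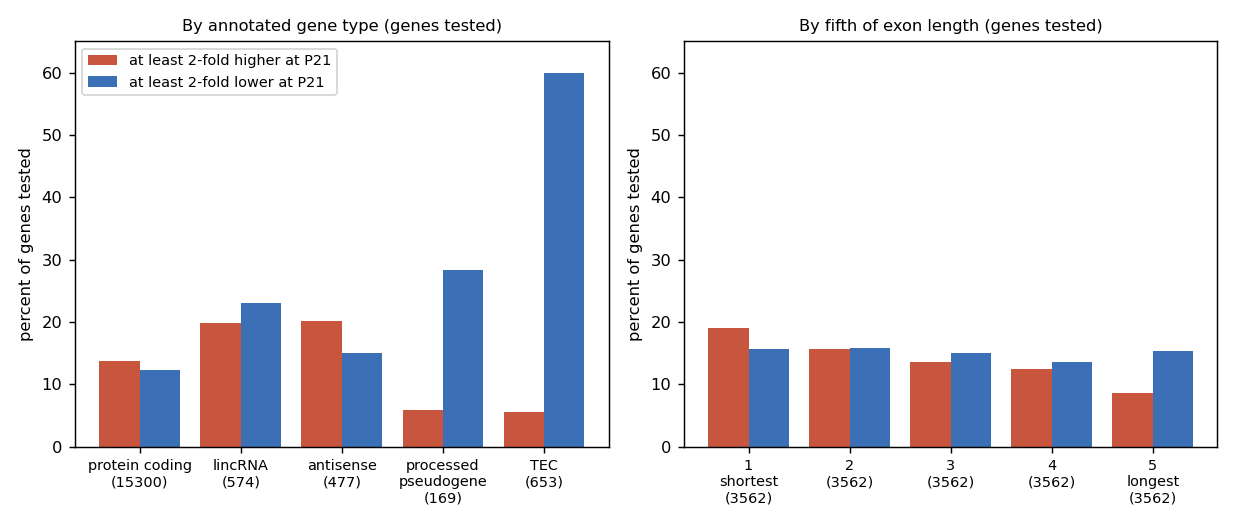
Percent of tested genes that were at least 2-fold higher (red) or lower (blue) at P21 than at P3, by GENCODE gene type on the left and by exon length in 5 equal classes on the right (number tested in brackets). In the TEC class 59.9% were lower, and the share higher goes from 19% in the shortest class to 8.67% in the longest.

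The animals labelled heterozygous for Myt1l give the same comparison in other libraries, 8 at P3 and 5 at P21. Of the 5152 wild-type genes changed at least 2-fold, 5044 could be tested there, 4888 were called in the same direction and 6 had the opposite sign. For comparison, 37.9% of all genes tested in those animals were called higher and 39.4% lower. Side by side, the log2 changes of wild-type and heterozygote-labelled animals were 9.60 and 9.76 for Gabra6, 9.30 and 9.64 for Opalin, -4.64 and -4.41 for Dcx, -4.24 and -4.72 for H19 and -4.03 and -4.17 for Mki67. The difference of the age change between genotypes, tested in 1 limma model of 26 libraries, was called for 0 of 18554 genes. The smallest adjusted p in that model was 0.117. An unadjusted p under 0.05 was reached by 1577 genes, more than evenly spread p-values would give. The 0 calls therefore do not show that the difference was absent. That difference carried a median SE of 0.134, and on simulated data the model found 78 of 100 genes given a difference of 1 on the log2 scale and 46 of 100 given 0.5. Noise there was drawn independently for each gene, without shifts that many genes of a library share. These rates may therefore not hold for the real data.

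Wild-type values at P56 show where P21 stands on the way to the adult; that comparison uses the same P21 libraries, so the 2 changes are given side by side only. From P21 to P56, 628 of 17184 genes (3.65%) were higher and 1060 (6.17%) lower. Newly formed oligodendrocyte genes were lower at P56 in 8 of 10 cases, with a median of -0.94 after 0.67 from P3 to P21; Gpr17 was at 1334 to 1984 and Enpp6 at 378 to 625. Mature myelin genes were lower in 13 of 25 and higher in 1, with a median of -0.79 after 4.80. Cholesterol synthesis genes were lower in 17 of 19, with a median of -0.59 after -0.43. Blood genes were lower in 5 of 6. Dcx, at 826 to 1255, and Tubb2b, at 2637 to 5516, were lower still in every P56 library than at P21. In the mature cerebellar list no gene was called (median -0.25), with Gabra6 at 780 to 4104, and the same held for homeostatic microglia (median -0.021). With 5 libraries at each age and a spread as wide as that of Gabra6, no call does not show that a level stayed the same.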

How the data were processed

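RNA was taken from whole brains, sequenced after a library kit that does not mark strand, and quantified by the authors with Salmon 1.1.0 and DESeq2 1.26.0 in R 3.6.2 on GRCm38, per the submitters' processing notes. The deposited values are a signal: estimated read counts divided by normalization factors, and whole reads could not be recovered from them, so depth is unknown and no count model was used. In the 13 wild-type libraries at P3 and P21, log2(value + 1) was compared with limma 3.58.1 in R 4.3.3 (trend and robust options), over genes at 10 or more in at least 5 libraries, with Benjamini-Hochberg adjustment over all 17821; every adjusted p is from this test and every log2 change is on that scale, which understates changes of low genes. A second rule also asked for a change of at least 2-fold. Values were tabulated with pandas 2.3.3 in Python 3.11.15. Gene types, exon lengths and coordinates came from GENCODE M21 (GRCm38), where 19150 of 19164 identifiers matched.

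The genes named are the 12 of largest change in each direction with a mean of at least 100 and an ordinary symbol, members of 51 lists (any member of lists of up to 20 tested, otherwise those of largest change, highest mean or minority direction) and both genes of 14 pairs; Snap25, Cldn5 and Cx3cr1 serve as cell type checks. Some genes that this rule takes in are not reported here. The comparison, lists and pairs were chosen with earlier results of these data known, and no list was tested as a set. On simulated data with 17821 genes the test called 81 of 100 genes changed by 1 on the log2 scale, 56 of 100 changed by 0.5 and 9 unchanged genes. Few genes were changed there, and noise was drawn independently for each gene. In the real data most genes were called and some libraries shifted many genes together, so these rates do not describe the real comparison. Alternatives covered normalization, filter, pseudocount, limma options, replicate number as a block, and libraries left out.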

Additional observations from a re-analysis of the deposited data

Results flagged for a closer look

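Among 567 combinations of a named gene and an age, 76 held a library whose gap to the nearest other library was larger, as a share of the range, than Dixon's test allows at the 95% level; chance alone flags about 1 in 20 groups. P21 replicate 5 accounted for 49 of them. The normalized count of P21 replicate 5 stood above those of the other 4 for Aldoa (65225), Cacna1b (4682), Cacng3 (4644), Camk2b (31850), Cck (9945), Dpysl3 (3537), Emx1 (574), Eno2 (41290), Gabra4 (4083), Gabra5 (2377), Gria3 (7461), Itpka (5047), Kcnab1 (4660), Ldha (12618), Ldhb (21235), Mcm6 (308), Mdh1 (35020), Mef2c (20002), Nrgn (52269), Pfkl (5964), Pfkp (12472), Ptbp2 (3481), Scn2b (13509), Slc17a7 (54908), Snrpn (40521), Syt4 (7972), Tuba4a (25254), Tubb3 (22691) and Tubb5 (26999). It stood below them for B2m (2101), Cbln3 (5758), Ctsd (12326), Cx3cr1 (982), Enpp6 (956), Kcnj10 (8524), Mal (13474), Msmo1 (3274), Notch1 (556), Ntrk2 (15919), Ntsr2 (3062), Pdgfra (1050), Sgce (862), Slc12a2 (2554), Slc1a2 (48059), Slc2a1 (2900), Slc6a11 (6399), Tmem119 (509), Tnr (6086) and Unc5b (1287).

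P21 replicate 2 was apart at the high end for Gpc2 (133). It was apart at the low end for Nnat (3100) and Slc16a7 (1037). P21 replicate 4 was apart at the high end for Dio2 (4376) and Gria4 (6264). At P3, replicate 1 stood above the other 7 for Acat1 (6629), Cldn5 (2416), Gabra6 (17.7), Hmgb2 (1469), Nefh (3052), Nefm (14949), Neurod1 (1914) and Syt2 (2560). It stood below them for Cacna1b (6203), Gria2 (12652) and Grik3 (5649). Replicate 2 stood above the others for Cacna1a (6501), Ciart (127), Gria3 (3034), Mef2a (5668), Ntrk2 (17771), Scn2a (11546) and Slc12a5 (11605). It stood below for Igf2 (8513). Replicate 8 stood above for Cnga2 (71.4) and Grik1 (1621). Replicate 6 stood above for Tap1 (220).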

How the results depend on the processing

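Over all genes, 116 of 116 recomputed counts stayed within 1.5 times the main count; leaving out 1 library gave 6681 to 6918 genes higher, 7023 to 7290 lower, 2414 to 2544 at least 2-fold higher and 2605 to 2828 at least 2-fold lower. Replicate numbers did not pair the libraries (correlations of deviations -0.0655, 0.0249, -0.0299, 0.034 and -0.0562), and with the number as a block 6339 genes were higher and 6374 lower. The difference between genotypes was called for 1 gene without limma's trend and robust options and for 0 to 2 genes when 1 library was left out. Of 8228 recomputed values of named genes 8148 stayed on their side of the threshold and did not reverse while called. A change of sign in a gene uncalled in both fits was not counted as a reversal. Of 1479 list medians, taken here relative to the median of all genes, 46 moved and 8 reversed, and the cause was not tested. Of 2958 recomputed counts within lists 2883 stayed within 1.5 times; among counts of at least 3 genes, a common total gave 4 apoptosis genes higher (main count 7), 7 vesicle genes lower (4) and 5 postsynaptic genes lower (3), quantile normalization 6 postsynaptic genes lower, prefix 11 alone 3 precursor genes higher (5), prefix 16 alone 1 choroid plexus gene lower (4), and quality weights 8 pericyte (4), 7 choroid plexus (4) and 8 ribosomal protein genes higher (4, and 1 under 6 other settings). With quantile normalization the median was 1.19 for NMDA receptors, 0.66 for sodium channels, -0.11 for calcium channels, 1.00 for ion pumps, -0.58 for neurofilaments, 0.76 for synaptic vesicle and release, 1.07 for glycolysis and glucose uptake, 0.53 for tricarboxylic acid cycle, -0.74 for DNA methylation, -1.06 for imprinted genes and -0.34 for ribosomal proteins. With a filter at 50 the median was 0.37 for NMDA receptors, -0.64 for matrix, -0.12 for growth factors, 0.48 for phagocytic microglia (reversed), 1.19 for MHC class I and 0.68 for olfactory epithelium and muscle. With a pseudocount of 8 the median was 1.14 for NMDA receptors. With library quality weights the median was -0.86 for neurogenic transcription factors and 0.027 for growth factors (reversed). With replicate number as a block the median was -0.87 for neurogenic transcription factors and 0.09 for phagocytic microglia (reversed). Without P3 replicate 1 and P21 replicate 5 the median was 0.41 for AMPA and kainate receptors, -0.10 for calcium channels, -0.86 for neurogenic transcription factors and 0.034 for growth factors (reversed). Without the P3 libraries whose descriptions carry number 1 or 2 the median was -0.85 for neurogenic transcription factors and 0.12 for phagocytic microglia (reversed). With the P21 libraries of description prefix 11 only the median was 0.57 for AMPA and kainate receptors, 0.81 for chloride handling, 0.74 for potassium and HCN channels, 0.093 for calcium channels (reversed), 1.03 for ion pumps, -0.90 for tubulins, -0.19 for growth factors, -0.95 for radial glia, 0.40 for newly formed oligodendrocytes, -0.46 for cholesterol synthesis, 1.38 for glycolysis and glucose uptake, -0.33 for apoptosis, 1.24 for homeostatic microglia and -0.97 for fibroblasts and meninges. With those of prefix 16 only the median was 0.34 for AMPA and kainate receptors, 0.48 for potassium and HCN channels, -0.1 for calcium channels, -1.03 for neurogenic transcription factors, 0.031 for growth factors (reversed) and -0.21 for apoptosis. Without P3 replicates 1 and 2 and P21 replicate 5, an alternative chosen after seeing the data, the median was -0.96 for neurogenic transcription factors and 2.07 for circadian clock. Leaving out 1 library moved the median over a range of 0.38 to 0.49 for AMPA and kainate receptors, -0.089 to 0.021 for calcium channels, -0.064 to 0.037 for growth factors and -0.88 to -0.76 for imprinted genes. The reversals, each called in the main fit, the alternative or both, were Arntl at -0.18 with a common total, Atp2b4 at -0.16 with a common total, Gnas at -0.0029 with quantile normalization, Oxct1 at -0.21 with quantile normalization, Oxct1 at -0.15 with a common total and Scn2a at -0.13 with a common total. Depth is unknown, so no counting error could be given for single values.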
